A study of Mus musculus with 19 samples.

Results

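Club and airway secretory genes were followed in neoplastic cells sorted from mouse lung tumors. The 6 genes were taken by symbol: *Scgb1a1*, *Scgb3a1*, *Scgb3a2*, *Cbr2*, *Cyp2f2* and *Bpifa1*. All 6 are among the 53558 genes of the deposited tables, and 4 of them passed the filter on low counts that left 13986 genes for testing. *Scgb3a1* and *Bpifa1* did not pass, and their values are given without a fold change.

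The cells came from mice with the *R26* LSL-tdTomato and *H11* LSL-Cas9 alleles on a mixed C57BL/6J:129 background, aged 6 to 12 weeks when tumors were started. Every group shared the tdTomato reporter and Cas9, which are silent until Cre acts. Virus given through the trachea delivered Cre together with guide RNAs, and tumors grew for 17 weeks before micro-dissection. The sgInert virus (Lenti-sgNeo1/sgNT/sgNeo2/Cre; 7 libraries, from 3 female and 4 male samples) carried 3 guides without a target in normal mouse genes. The sgCebpa/b/d virus (Lenti-sgCebpa/sgCebpb/sgCebpd/Cre; 7 libraries, 4 female and 3 male) targeted 3 C/EBP transcription factors, and the sgLkb1 virus (Lenti-sgLkb1/Cre; 5 libraries, all female) targeted the kinase LKB1, whose gene is *Stk11*. Cre was not restricted to a cell type by the mice, and Cas9 cutting leaves a mixture of alleles rather than a defined deletion. Cells with the surface proteins CD45, CD31, F4/80 or Ter119 were gated out, which leaves out blood and endothelial cells, and the protocol lists no marker against normal airway epithelium.

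Club cells are the non-ciliated secretory cells that line the bronchioles. They release small secretoglobins and antimicrobial proteins into the airway fluid, and they hold large amounts of enzymes that metabolise inhaled chemicals. They can also divide to renew the bronchiolar lining, and both club cells and alveolar type II cells can give rise to lung tumors in mice. In the 6 genes both sides of the cell are present: *Scgb1a1*, *Scgb3a1* and *Scgb3a2* encode secretoglobins, *Bpifa1* encodes a secreted antimicrobial protein of the upper airway, and *Cbr2* and *Cyp2f2* encode a carbonyl reductase and a cytochrome P450.

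Library totals ran from 2760722 to 9944131 estimated counts. *Stk11* was lower in every sgLkb1 library (log2 CPM 2.97 to 3.68) than in every sgInert library (4.31 to 4.54), as a check of the labels. Some libraries came from the same animal: sgInert 2 and 5, sgCebpa/b/d 1, 3 and 4, and sgLkb1 2 and 3 share an animal number in their titles. The titles fall into 3 kinds, with an animal number starting MT (10 libraries), one starting ZR (4, all sgInert) or no animal number (5: sgCebpa/b/d 5, 6 and 7 and sgLkb1 1 and 5). In sgCebpa/b/d the 3 libraries without an animal number are also the 3 male ones, so title kind and sex cannot be told apart there. *Ptprc*, which encodes the gated-out CD45, had 192 to 265 counts in those 3 libraries, 370 in sgLkb1 1 and 53 in sgLkb1 5, against 0 to 20 in the other 14 libraries.

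In the GRCm38 (mm10) annotation *Scgb1a1* lies at chr19:9083636-9087958 on the minus strand, *Scgb3a1* at chr11:49663610-49665118 on the plus strand and *Scgb3a2* at chr18:43764289-43767399 on the plus strand. *Cbr2* lies at chr11:120729489-120732114 on the minus strand, *Cyp2f2* at chr7:27119909-27133660 on the plus strand and *Bpifa1* at chr2:154142880-154149219 on the plus strand. The reads were summed over whole genes, so each value covers the exons of all annotated transcripts, from 1 transcript for *Scgb1a1* to 4 for *Cbr2*. Of the 6 genes *Cyp2f2* alone overlaps another annotated gene, the antisense *Gm15883*, which had 0 to 6 counts per library. Whether the counting used strand is not given in the sources used here, so reads of that pair could not be told apart.

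*Cbr2* was the most abundant of the 6 genes and *Scgb1a1* the next, while *Bpifa1* was close to absent. On the TPM scale, which divides by transcript length and so allows levels of different genes to be compared, the median over the 19 libraries was 511.7 for *Cbr2* (range 95.09 to 1946), 58.2 for *Scgb1a1* (3.33 to 863.4) and 19.46 for *Cyp2f2* (9.36 to 33.08). It was 3.87 for *Scgb3a2* (0 to 79.87), 0.5 for *Scgb3a1* (0 to 71.57) and 0 for *Bpifa1* (0 to 1.33). *Cbr2* stood at or above the 98th percentile of all genes in each of the 19 libraries. The ranges of *Cbr2* and *Scgb1a1* overlapped, as did those of *Scgb1a1* and *Cyp2f2*, so neighbours in this order of levels exchanged places in single libraries. In the sgInert group the medians kept the order, with 454.5 TPM for *Cbr2*, 157 for *Scgb1a1* and 18.01 for *Cyp2f2*. The medians were 927.9, 46.38 and 20.62 in sgCebpa/b/d, and 123.6, 99.95 and 13.48 in sgLkb1.

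**Figure D1:**
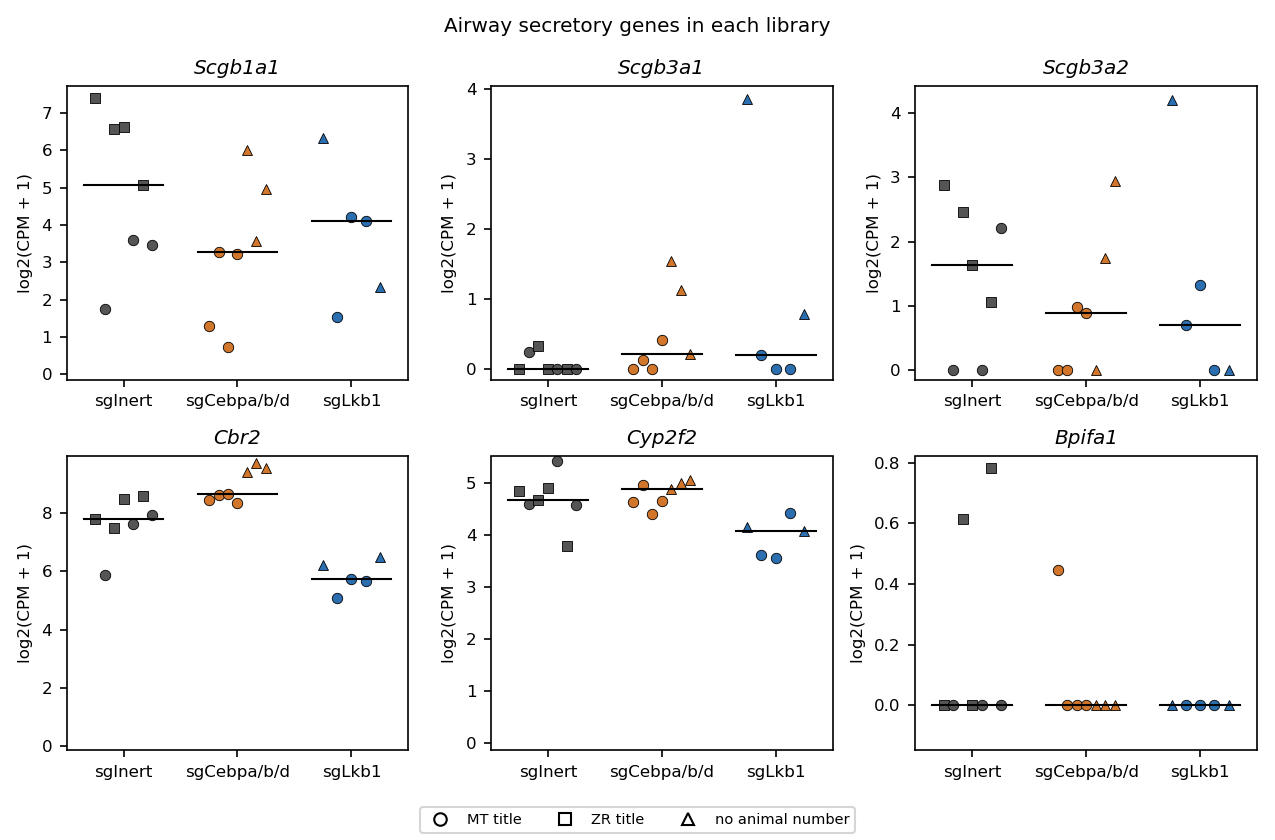
Level of each of the 6 genes as log2(CPM + 1) on the vertical axis, where CPM is counts per 1000000 of the library's TMM-adjusted total; each point is a library, placed by virus group and shaped by the kind of library title, and the black line is the group median. *Cbr2* separates the sgLkb1 libraries (32.61 to 89.56 CPM) from the sgCebpa/b/d libraries (328 to 837.9 CPM), *Scgb1a1* spreads widely inside every group, and *Scgb3a1* reaches 13.38 CPM in sgLkb1 1 alone.

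*Scgb1a1* encodes the main secreted protein of club cells, and its RNA was found in every library at very unequal levels. In sgInert the 7 libraries held 887, 13, 359, 421, 87, 181 and 41 counts, or 167.3, 2.368, 95.16, 98.07, 11.22, 32.58 and 9.988 CPM in replicate order. In sgCebpa/b/d the counts were 4, 85, 4, 49, 400, 64 and 182, or 1.448, 8.683, 0.6594, 8.305, 63.93, 10.83 and 30.44 CPM. In sgLkb1 they were 687, 12, 117, 167 and 28, or 79.26, 1.881, 17.75, 16.42 and 4.078 CPM. The highest library was 70.7 times the lowest within sgInert, 97 times within sgCebpa/b/d and 42.1 times within sgLkb1, and the 3 groups overlapped. *Scgb1a1* was therefore not distinguishable between groups at this spread.

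The fitted log2 fold change of *Scgb1a1* was -1.72 ± 0.877 (SE; adjusted p = 0.246) for sgCebpa/b/d (n = 7) against sgInert (n = 7), with a 95% interval from -3.54 to 0.104. For sgLkb1 (n = 5) against sgInert it was -1.30 ± 0.959 (adjusted p = 0.524; interval -3.29 to 0.692), and for sgCebpa/b/d against sgLkb1 -0.42 ± 0.938 (adjusted p = 0.862; interval -2.36 to 1.53). None passed, and intervals this wide leave room for large differences. The first and second comparisons share the sgInert libraries. The within-group SD of *Scgb1a1* was 2.11 on the log2 CPM scale, larger than that of 99.6% of the genes tested, whose median SD was 0.427.

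Within sgInert the *Scgb1a1* levels were higher in the ZR than in the MT libraries. The 4 ZR libraries held 32.58 to 167.3 CPM and the 3 MT libraries 2.368 to 11.22 CPM. In sgCebpa/b/d the 3 libraries without an animal number held 10.83 to 63.93 CPM and the 4 MT libraries 0.6594 to 8.683 CPM. In sgLkb1 the libraries without an animal number held 4.078 and 79.26 CPM against 1.881 to 17.75 CPM, which overlap. The share of all genes that separate by title kind is not given here, so this pattern is not shown to be particular to *Scgb1a1*. What the title kinds stand for is not described in the sources used here, and their part in the result was not tested. Among MT libraries only, *Scgb1a1* had a log2 fold change of -0.65 for sgCebpa/b/d against sgInert (adjusted p = 0.717) and 0.61 for sgLkb1 against sgInert (adjusted p = 0.754), the second with the opposite sign to the value over all libraries. For sgCebpa/b/d against sgInert the value was -0.37 (adjusted p = 0.898) with title kind as a covariate and -3.51 (adjusted p = 0.0505) without the 5 libraries lacking an animal number, so the size of this difference moved both ways under these settings and passed in neither.

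*Scgb3a2*, a secretoglobin that appears early in the developing airway, was detected in 12 of the 19 libraries. In sgInert it had 34, 0, 17, 9, 0, 6 and 15 counts, in sgCebpa/b/d 0, 0, 6, 5, 0, 14 and 40, and in sgLkb1 152, 4, 10, 0 and 0. The highest value, 152 counts or 17.54 CPM, was in sgLkb1 1, and all 3 groups held libraries at 0. A count of 0 allows up to 3 counts, which came to 0.566 CPM in sgInert 1, for example, and this floor covers counting error only. The log2 fold change was -0.65 ± 1.2 (SE; adjusted p = 0.802) for sgCebpa/b/d against sgInert, 0.67 ± 1.24 (adjusted p = 0.846) for sgLkb1 against sgInert and -1.32 ± 1.25 (adjusted p = 0.635) for sgCebpa/b/d against sgLkb1. The intervals reached from -3.14 to 1.83, from -1.92 to 3.25 and from -3.92 to 1.28, so no difference was detectable at this depth and spread. Without sgLkb1 1 the second value became -2.22 and the third 1.56, both with the sign turned.

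*Scgb3a1*, a secretoglobin of the larger airways, was near 0 except in single libraries. Its counts were 0, 1, 1, 0, 0, 0 and 0 in sgInert, 0, 1, 0, 2, 12, 7 and 1 in sgCebpa/b/d, and 116, 1, 0, 0 and 5 in sgLkb1. The 4 libraries with more than 3 counts were sgCebpa/b/d 5 and 6 and sgLkb1 1 and 5, all of them without an animal number in the title. The exact permutation test on log2(CPM + 1), two-sided, gave an unadjusted p of 0.107 for sgCebpa/b/d against sgInert, 0.107 for sgLkb1 against sgInert and 0.619 for sgCebpa/b/d against sgLkb1. The groups overlapped in each case.

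*Bpifa1* gave 7 counts in all: 2 in sgInert 3, 4 in sgInert 6 and 1 in sgCebpa/b/d 1, with 0 in the other 16 libraries. In 18 of 19 libraries it was thus at or under the 3 counts that a count of 0 allows. The exact permutation p, two-sided and unadjusted, was 0.462, 0.47 and 1 for the 3 comparisons in the same order.

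The library sgLkb1 1 stood first for *Scgb3a1* and *Scgb3a2* at once, with 116 and 152 counts, while for *Scgb1a1* it lay below sgInert 1, 3 and 4 at 79.26 CPM. In that library the 3 secretoglobins made up 56.6%, 8.68% and 9.68% of the summed TPM of the 6 genes in the order *Scgb1a1*, *Scgb3a1*, *Scgb3a2*. In sgInert 1, which had the most *Scgb1a1*, *Scgb3a1* was at 0 and *Scgb3a2* stood at 2.97 TPM per 100 TPM of *Scgb1a1*, against 17.1 in sgLkb1 1. The secretoglobins therefore did not keep a fixed ratio to each other across libraries. Over the 19 libraries the Pearson correlation of log2 CPM between *Scgb1a1* and *Scgb3a2* was 0.556, and 0.534 after removal of group means. These libraries share groups, animals and preparation, and the value is a description.

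**Figure D2:**
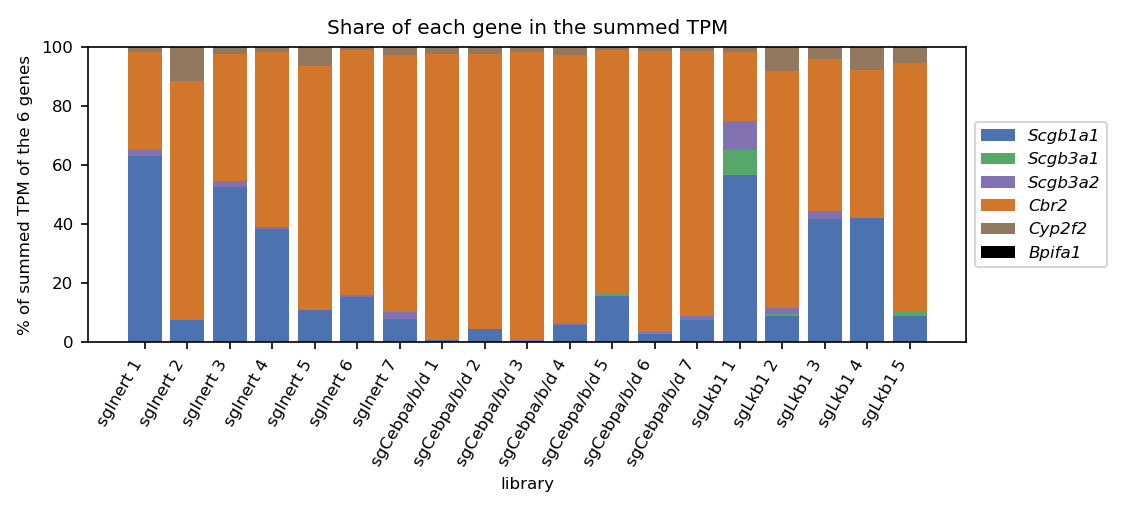
Share of each of the 6 genes in their summed TPM, in percent, for each of the 19 libraries in group order. *Cbr2* takes 82.6% to 97.4% in the 7 sgCebpa/b/d libraries, while *Scgb1a1* takes 63.2% in sgInert 1 and 56.6% in sgLkb1 1.

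*Cbr2*, carbonyl reductase 2, is a mitochondrial enzyme of the lung that reduces aldehydes and ketones, and it was the member that differed in all 3 comparisons. In sgInert its 7 libraries held 1161, 318, 678, 1532, 1527, 2135 and 999 counts, or 219, 57.93, 179.7, 356.9, 197, 384.3 and 243.4 CPM. In sgCebpa/b/d the values were 956, 3838, 2436, 1935, 4247, 4952 and 4470 counts, or 346.1, 392.1, 401.6, 328, 678.8, 837.9 and 747.7 CPM. In sgLkb1 they were 644, 208, 347, 504 and 615 counts, or 74.3, 32.61, 52.63, 49.55 and 89.56 CPM. Every sgCebpa/b/d library lay above every sgLkb1 library, and 5.08% of all genes tested had no overlap, in either direction, between these groups. sgInert lay between the targeting groups but overlapped with both, since sgInert 4 and 6 reached into the sgCebpa/b/d range and sgInert 2 fell among the sgLkb1 libraries.

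*Cbr2* rose in sgCebpa/b/d against sgInert, with a log2 fold change of 1.19 ± 0.315 (SE; 2.28-fold; adjusted p = 0.0162; 95% interval 0.535 to 1.84; n = 7 and 7). It was the only one of the 4 tested members called in this comparison, where 4.65% of all genes tested were called. A call required a Benjamini-Hochberg adjusted p below 0.05 together with a change of more than 1 log2 unit in either direction. *Cbr2* fell in sgLkb1 against sgInert, with a log2 fold change of -1.97 ± 0.367 (adjusted p = 0.00208; interval -2.73 to -1.21; n = 5 and 7), and was again the 1 member called, against 3.01% of all genes. These comparisons share the sgInert libraries. Between the targeting viruses *Cbr2* was 8.92-fold higher in sgCebpa/b/d than in sgLkb1, with a log2 fold change of 3.16 ± 0.388 (adjusted p = 1.95e-05; interval 2.35 to 3.96). It ranked 39 of 13986 genes by p, and was the 1 member called where 2.8% of all genes were.

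**Figure D3:**
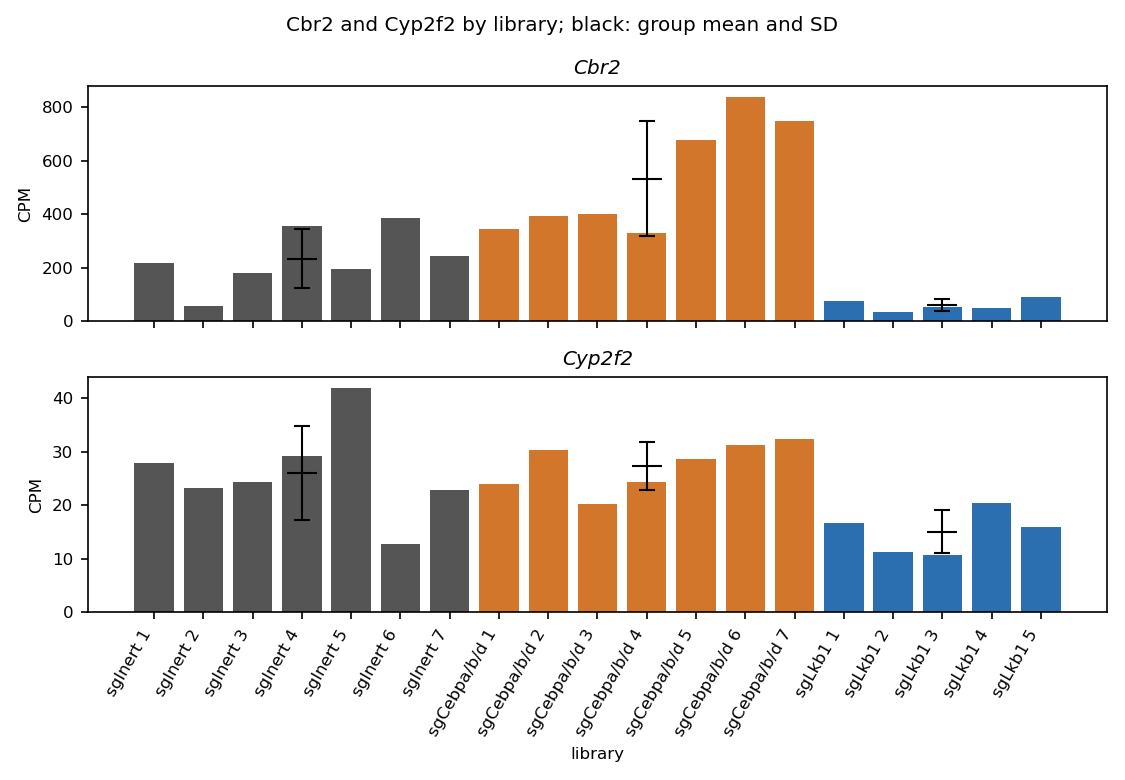
CPM of *Cbr2* (top) and *Cyp2f2* (bottom) in each library, as bars from 0 in group order, with the group mean and SD in black. *Cbr2* averages 234 ± 111 in sgInert, with 533.2 ± 214 in sgCebpa/b/d libraries, and 59.73 ± 22.3 for sgLkb1, while *Cyp2f2* averages 26, 27.24 and 15.02 CPM.

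The rise of *Cbr2* in sgCebpa/b/d was largest in the libraries whose titles hold no animal number, at 678.8 to 837.9 CPM against 328 to 401.6 CPM in the 4 MT libraries. When the 5 libraries without an animal number were left out, an alternative chosen after seeing the data, *Cbr2* had a log2 fold change of 0.65 in sgCebpa/b/d against sgInert (adjusted p = 0.281) and was no longer called. Within MT libraries only, the value was 1.14 (adjusted p = 0.0466), with 328 to 401.6 CPM in sgCebpa/b/d and 57.93 to 243.4 CPM in sgInert. Among these, sgInert 2 and 5 share an animal number, as do sgCebpa/b/d 1, 3 and 4, and the p counts each library separately. The lowest value, 57.93 CPM, came from sgInert 2, which lay apart from the other sgInert libraries. The 2 settings differ in the 4 ZR libraries of sgInert, which held 179.7 to 384.3 CPM. In sgLkb1 too the libraries without an animal number were higher, at 74.3 and 89.56 CPM against 32.61 to 52.63 CPM. The other 2 comparisons of *Cbr2* stayed called without these libraries, at -2.38 (adjusted p = 0.00275) and 3.03 (adjusted p = 0.000919). In bulk RNA, fewer cells that express a gene and less RNA per cell cannot be told apart, and this holds for each difference given here.

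*Cyp2f2*, a cytochrome P450 of club cells that activates naphthalene, varied less between libraries. Its CPM in sgInert were 27.92, 23.13, 24.39, 29.12, 41.79, 12.78 and 22.9, in sgCebpa/b/d 23.89, 30.24, 20.28, 24.24, 28.61, 31.13 and 32.28, and in sgLkb1 16.73, 11.29, 10.77, 20.45 and 15.87. sgInert and sgCebpa/b/d covered much the same range, and 4 of the 5 sgLkb1 libraries were below every sgCebpa/b/d library. The log2 fold change was 0.07 ± 0.201 (SE; adjusted p = 0.891) for sgCebpa/b/d against sgInert, with a 95% interval from -0.351 to 0.483. It was -0.79 ± 0.225 (adjusted p = 0.0391; interval -1.26 to -0.322) for sgLkb1 against sgInert and 0.85 ± 0.225 (adjusted p = 0.0243; interval 0.388 to 1.32) for sgCebpa/b/d against sgLkb1. Both of these passed the threshold on p and missed that on fold change, so *Cyp2f2* was not called. An adjusted p under the threshold at any fold was reached by 5.78% and 5.96% of all genes in these comparisons. With single libraries left out, the adjusted p of *Cyp2f2* in sgLkb1 against sgInert ran from 0.00833 to 0.111.

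**Figure D4:**
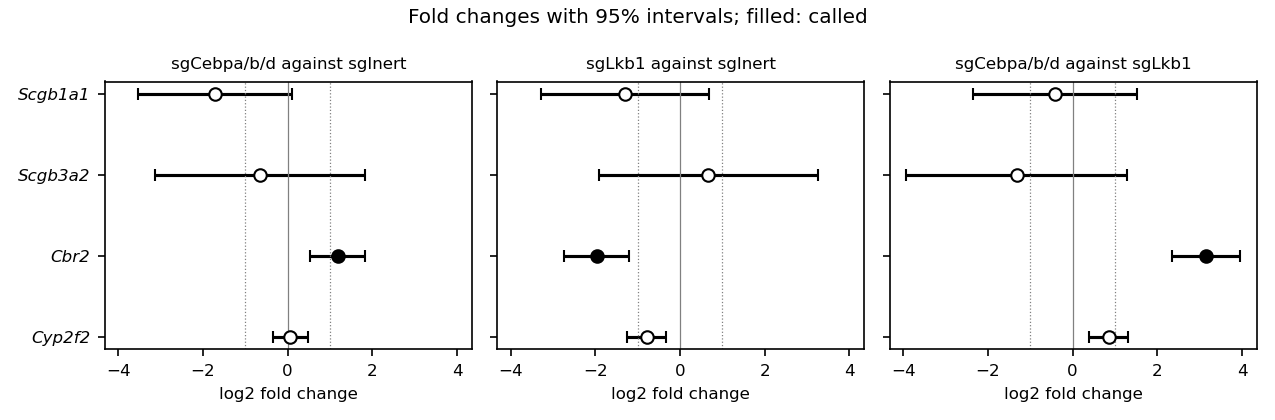
Fitted log2 fold change (horizontal axis) with its 95% interval for the 4 members tested, in each of the 3 comparisons; filled points were called, and dotted lines mark an absolute value of 1. *Cbr2* is the filled point in each panel, at 1.19, -1.97 and 3.16, and the intervals of *Scgb1a1* and *Scgb3a2* include 0 throughout.

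The promoters of the enzyme pair were searched because *Cbr2* differed in both comparisons with sgInert and *Cyp2f2* was called in neither, and because 1 virus targets C/EBP factors. RefSeq windows on GRCm38.p6, from 250 bases before to 50 after the start, were searched for 4 of the 6 members: *Cbr2*, *Cyp2f2*, *Scgb3a1* and *Bpifa1*. The remaining members were left out of this search, which does not show that they lack a window. On both strands the letters TTGCNNAA were searched for C/EBP, TGTTTNC for FOXA and CTCAAG for NKX2-1. These letters occurred in 10.8%, 20.5% and 15.9% of the 32851 promoter windows of the same length. The stretches printed are the parts upstream of every annotated transcript start, 157 bases at chr11:120732115-120732271 (minus strand) for *Cbr2* and 204 bases at chr7:27119705-27119908 (plus strand) for *Cyp2f2*, with capitals for a motif match.
Cbr2: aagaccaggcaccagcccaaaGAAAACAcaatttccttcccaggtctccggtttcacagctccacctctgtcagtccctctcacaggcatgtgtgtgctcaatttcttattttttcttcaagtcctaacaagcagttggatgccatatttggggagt
Cyp2f2: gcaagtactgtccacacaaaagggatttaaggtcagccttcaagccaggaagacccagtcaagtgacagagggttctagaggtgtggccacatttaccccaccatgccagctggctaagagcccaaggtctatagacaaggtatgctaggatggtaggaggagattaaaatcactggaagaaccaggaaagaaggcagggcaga
The *Cbr2* window held 1 FOXA match at position -229 from the start, read on the opposite strand as GAAAACA, and no C/EBP or NKX2-1 letters. The *Cyp2f2* window held none of the 3 motifs. The *Scgb3a1* window held a FOXA match at -55 and an NKX2-1 match at -172, and that of *Bpifa1* held NKX2-1 letters at -213 and 36. A match in letters is a description and says nothing of binding, and a window without one says only that these letters are not in it.

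Genes whose levels followed each member most closely over the 19 libraries were sought among 13984 genes by the Pearson correlation of log2 CPM. For *Cbr2* these were *Cdc42bpa* (0.944), *Akap13* (0.85), *Panct2* (0.845) and *Tnxb* (0.842). After removal of group means the value stayed at 0.732 for *Cdc42bpa* and was 0.187 to 0.479 for the other 3. For *Scgb1a1* they were *Bach1* (0.814), *Fhad1* (0.8), *Sft2d2* (0.782), *Nceh1* (0.772) and *Pfkfb2* (0.757), and *Scgb3a2*, *Cbr2* and *Cyp2f2* were not among them. *Scgb3a1* and *Bpifa1*, which failed the filter on low counts, could not appear. *Cyp2f2* was closest to *Tbc1d8b* (0.797), *Paip2*, *Arpc5*, *Cramp1l* and *Rock2*, and *Scgb3a2* to *Ankrd13a* (0.692), *Prkci*, *Arvcf*, *Mia3* and *Lrrc8e*. *Cbr2* and *Cyp2f2* correlated at 0.624 over all libraries and at 0.0997 within groups. All of these values are descriptions over libraries that share groups and animals.

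Relatives of the members were few in these cells. Of 69 genes with Scgb symbols 5 had any count, and the tested ones beside *Scgb1a1* and *Scgb3a2* came down to *Scgb1c1*, which had 15 to 71 counts per library and was not called in any comparison (log2 fold changes -0.08, -0.77 and 0.69). Of the 4 numbered carbonyl reductases, *Cbr1*, *Cbr3* and *Cbr4* were not called in any comparison, and *Cbr3* came nearest with 1.14 ± 0.356 (SE; adjusted p = 0.0629) in sgLkb1 against sgInert. *Cbr2* thus stood alone in its family in being called, at a median of 511.7 TPM against 16.61 for *Cbr1*, 4.04 for *Cbr3* and 12.48 for *Cbr4*. Of 14 Bpif genes 7 had a count and *Bpifb5* was tested. It fell by 1.91 ± 0.552 on the log2 scale (adjusted p = 0.029) in sgCebpa/b/d against sgInert, from 6 to 28 counts in sgInert to 0 to 13 in sgCebpa/b/d, and this call was lost without any one of sgCebpa/b/d 5, 6 or 7 (adjusted p = 0.217 without all libraries lacking an animal number).

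Among 20 other genes listed for airway secretory cells, not all of which encode secreted proteins, 8 were tested and 2 rose in each comparison with sgInert. Of all genes tested, 2.65% were called higher in sgCebpa/b/d and 1.87% in sgLkb1. *Retnla*, a secreted resistin-like protein, rose with a log2 fold change of 4.46 ± 0.629 (adjusted p = 5.62e-05) in sgCebpa/b/d and 2.89 ± 0.62 (adjusted p = 0.00636) in sgLkb1. Its medians were 20.18 CPM in sgInert (10.32 to 42.16), 743.5 in sgCebpa/b/d (41.71 to 948.4) and 150.7 in sgLkb1 (111.5 to 303.7). Within sgCebpa/b/d the 20 genes summed to 304.8, 296.7 and 396.1 CPM in libraries 1, 3 and 4, which share an animal number. The other sgCebpa/b/d libraries summed to 1043 to 1289 CPM, and sgInert to 289.9 to 468.5 CPM. *Wfdc2* held 210.5 to 303.6 CPM in sgCebpa/b/d, so the median of *Retnla* describes those other libraries. *Muc5ac*, a gel-forming mucin of goblet cells, rose in sgCebpa/b/d (3.28 ± 0.813, adjusted p = 0.0105) from a median of 0.2651 to 2.538 CPM, a call that was lost when libraries of 1 animal were summed and with limma on log2(TPM + 1). *Muc5b*, the main mucin of club cells, rose in sgLkb1 (2.61 ± 0.767, adjusted p = 0.0464) from 0.5399 to 13.8 CPM, and lost this call in 12 of the 19 fits that left out 1 library, sgLkb1 1 included, and without the libraries lacking an animal number (adjusted p = 0.389). None was called between sgCebpa/b/d and sgLkb1. The median log2 fold change of the 8 was 0.46 and -0.39 against sgInert, beside 0.02 and -0.01 over all genes.

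Of 15 xenobiotic enzymes expressed in club cells, 12 were tested, and those called fell. Of all genes tested, 2% were called lower in sgCebpa/b/d and 1.14% in sgLkb1, each against sgInert. *Fmo2*, the main flavin monooxygenase of the lung, fell by 2.38 on the log2 scale (SE 0.399; adjusted p = 0.000353) in sgCebpa/b/d and by 1.80 (SE 0.438; adjusted p = 0.0156) in sgLkb1. Its CPM were 79.41 to 291 in sgInert, with 19.07 to 46.02 in sgCebpa/b/d libraries, and 9.93 to 107.8 for sgLkb1, and the call in sgLkb1 was lost without sgLkb1 1, when libraries of 1 animal were summed and with title kind as a covariate. *Aox3*, an aldehyde oxidase, fell by 1.37 (SE 0.217; adjusted p = 0.00019) in sgCebpa/b/d, from 202.5 to 558.8 CPM down to 89.32 to 204.9 CPM. The other 10 and 11 enzymes tested were not called in these comparisons, and none of the 12 was called between sgCebpa/b/d and sgLkb1. *Cbr2*, also an enzyme, thus rose in sgCebpa/b/d where *Fmo2* and *Aox3* fell.

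Of 19 regulators of the airway programme 18 were tested, and none was called against sgInert. *Cebpa*, one of the 3 targeted genes, passed the threshold on p in sgCebpa/b/d against sgInert and missed that on fold change, at 0.73 (adjusted p = 0.00148), with 71.92 to 125.4 CPM against 42.68 to 68.85 CPM and no overlap. Of all genes tested, 3.37% had no overlap between these groups. *Cebpa* was 1 of 2 regulators under the threshold on p at any fold in this comparison, both higher. In sgLkb1 against sgInert 1 regulator was under it, and was lower. Among all genes tested, 10.1% and 5.78% were under it in these comparisons. *Cebpa* was called higher in sgCebpa/b/d than in sgLkb1 (log2 fold change 1.15 ± 0.159, adjusted p = 7.17e-05), against 35.98 to 56.3 CPM there, a call lost with limma on log2(TPM + 1). The summed level of its RNA does not show whether the reading frame was cut.

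Markers of other cell types were summed per library to set beside these values. The 10 alveolar type II markers were all detected in every library, with sums of 70440 to 89330 CPM in sgInert, with 33560 to 62800 in sgCebpa/b/d libraries, and 41180 to 55180 for sgLkb1. Against sgInert 4 of the 10 fell in sgCebpa/b/d, *Lyz2* (-3.52), *Abca3* (-1.33), *Etv5* (-1.15) and *Lamp3* (-1.02), and 2 fell in sgLkb1, *Lyz2* (-1.94) and *Sftpa1* (-1.08), the second no longer called with title kind as a covariate or with limma on log2(TPM + 1). The *Lamp3* call held in 12 of the 19 fits that left out 1 library. Of all genes tested, 2% and 1.14% were called lower in these comparisons. *Sftpc*, the defining secreted product of that cell type, stood at 20130 to 41530 TPM over the 19 libraries, above *Cbr2* in each. The label of the gene group is thus not a label of the cells, which carried alveolar type II markers at high levels in every group. The 16 ciliated cell markers, which would mark airway epithelium caught in the sort, summed to 7.104 to 25.16 CPM in sgInert, with 11.87 to 34.79 in sgCebpa/b/d libraries, and 11.65 to 41.69 for sgLkb1 once *Sec14l3* was left out, a choice made after its 244 to 1605 counts per library were seen. In sgInert 1, sgCebpa/b/d 5 and sgLkb1 1, the highest of their groups for *Scgb1a1*, these sums were 20.18, 34.68 and 37.5 CPM. The highest sum, 41.69 CPM, was in sgLkb1 4, which had no counts of *Scgb3a1* or *Scgb3a2*. The part of such cells in the secretoglobin levels was not tested. Of the 16 ciliated markers, 8 were tested and none was called in any comparison. Basal cell markers summed to at most 4.516 CPM, and *Krt5*, *Krt14* and *Dapl1* were at 0 in all 19 libraries.

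Of 7 endothelial markers 5 rose in sgCebpa/b/d against sgInert, among them *Emcn* (log2 fold change 2.596), *Vwf* (3.09), *Pecam1* (1.95) and *Cdh5* (2.21), and *Emcn* rose in sgLkb1 (2.45), a call lost with title kind as a covariate and without sgLkb1 4 or sgLkb1 5. The 5 calls in sgCebpa/b/d were lost without the libraries lacking an animal number, with adjusted p from 0.487 for *Emcn* to 0.884 for *Pecam1*. The summed levels of the 7 were 10.02 to 50.18 CPM in sgInert, with 17.31 to 284.7 in sgCebpa/b/d libraries, and 54.3 to 209.3 for sgLkb1. Of 8 fibroblast markers *Dcn* (2.88 and 2.84) and *Col3a1* (1.52 and 1.70) rose in sgCebpa/b/d and sgLkb1, with sums of 11.11 to 154.6, 62.82 to 241.2 and 97.63 to 254.7 CPM. The *Col3a1* call held in 9 of the 19 fits that left out 1 library for sgCebpa/b/d, and in 7 for sgLkb1. Both *Col3a1* calls were also lost when libraries of 1 animal were summed and with only the 2 groups compared. None of the 6 tested immune markers was called, and their sums reached 24.12, 72.76 and 64.61 CPM. Of 8 alveolar type I markers *Pdpn* (2.53), *Hopx* (1.86) and *Akap5* (1.13) rose in sgCebpa/b/d. Of all genes tested, 2.65% were called higher in sgCebpa/b/d and 1.87% in sgLkb1, each against sgInert. Between the targeting viruses *Lyz2* was lower (-1.58) and *Pdpn* higher (1.82) in sgCebpa/b/d, where 1.64% of all genes were called lower and 1.16% higher. Without the libraries lacking an animal number, the calls of *Lamp3*, *Etv5*, *Akap5* and *Col3a1* against sgInert and of *Lyz2* and *Pdpn* between the targeting viruses were lost. These markers move with the groups in which *Cbr2* was compared, and their part in the result was not tested.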

How the data were processed

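The authors aligned paired reads of the 19 libraries (Trio RNA-Seq, Mouse rRNA kit) to mm10 with STAR 2.6.1d in 2-pass mode and estimated gene levels with RSEM 1.2.30, for use in DESeq2 1.26.0. The deposited tables, 1 per library, give RSEM's expected counts, which divide reads shared by genes and need not be whole, and TPM, which the authors' RSEM run scaled by effective length and to a total of 1000000 per library. Groups, replicate numbers and sexes came from the labels, and the animal numbers from the library titles. The 6 members and the gene lists were chosen with earlier results of these data known.

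Expected counts were rounded to whole numbers. Genes passed filterByExpr (minimum count 10, minimum total 15), libraries were scaled by TMM, and 1 edgeR 4.0.16 quasi-likelihood model (R 4.3.3) held the 3 groups. Two-sided p-values were adjusted by Benjamini-Hochberg over all 13986 genes, and a call required both of the study's thresholds, 0.05 for the adjusted p and 1 for the size of the log2 fold change. CPM are counts per 1000000 of the TMM-adjusted library total, and log2 CPM has a prior count of 2. *Scgb3a1* and *Bpifa1*, which failed the filter, were compared by an exact permutation test on log2(CPM + 1). n counts libraries, some from 1 animal, so p-values measure only the spread between these libraries. No 2 libraries of a group were alike within sampling noise (chi-square per gene 5.3 to 51.3 over 52 pairs). Totals of 2760722 to 9944131 set the floor of 3 counts, which covers counting error only.

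Named genes were all members, the called genes of each other list (at most 4 per comparison by smallest p), the 5 genes closest to each tested member, and tested genes of the Scgb, Bpif and Cbr families. Some items, an allele shared by all mice among them, are not reported here. Alternatives were DESeq2 1.42.0, its size factors, no filter, length offsets, limma 3.58.1 on log2(TPM + 1), only the 2 groups compared, sex or title kind as a covariate, only MT libraries, libraries of 1 animal summed, a replicate block, leaving out the 5 libraries without an animal number (chosen after seeing the data) and leaving out each library in turn. The model was tested on simulated data first. Promoter windows came from RefSeq (GRCm38.p6) and gene positions from GENCODE vM21.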

Additional observations from a re-analysis of the deposited data

Results flagged for a closer look

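*Cbr2* in sgInert 2 lay apart from the other 6 sgInert libraries, with a log2 CPM of 5.86. Its gap to the nearest library was 0.598 of the whole range of the group, above Dixon's 95% critical value of 0.568 for 7 samples. Of 12 combinations of member and group looked at in this way, this was the only one past its critical value, and chance alone puts about 1 in 20 groups past it. The library shares its animal number with sgInert 5, which held 197 CPM against 57.93 CPM.

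The effects of the 2 targeting viruses on *Cbr2* relative to sgInert differed. The difference between them, which equals the direct comparison of sgCebpa/b/d with sgLkb1, was 3.16 on the log2 scale (adjusted p = 1.95e-05), with the effects at 1.19 and -1.97.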

How the results depend on the processing

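*Cbr2* stayed called in all 12 alternatives for sgLkb1 against sgInert (log2 fold change -2.38 to -1.57) and for sgCebpa/b/d against sgLkb1 (2.78 to 3.24), and in 11 of 12 for sgCebpa/b/d against sgInert. There, without the 5 libraries lacking an animal number, 0 members were called (*Cbr2* 0.65, adjusted p = 0.281) and 419 genes in place of 650. In sgLkb1 against sgInert 2 members were called with title kind as a covariate (*Cyp2f2* -1.07) and among MT libraries only (-1.05), and 2 with no filter on low counts (*Scgb3a1*, from 116 counts in sgLkb1 1); with sex as a covariate 750 genes were called in place of 421. Leaving out each library in turn gave 1 member called throughout. Signs turned only for values that were not called. *Cyp2f2* in sgCebpa/b/d against sgInert became -0.23 with title kind as a covariate, -0.26 among MT libraries, -0.075 without the libraries lacking an animal number, and -0.054 to 0.22 over libraries left out (lowest without sgInert 6). *Scgb1a1* in sgLkb1 against sgInert became 0.40 with title kind as a covariate and 0.61 among MT libraries. *Scgb3a2* there became -0.39 with limma on log2(TPM + 1), -0.39 with title kind as a covariate, -1.83 without the libraries lacking an animal number, and -2.22 to 1.12 over libraries left out. In sgCebpa/b/d against sgLkb1, over libraries left out, *Scgb1a1* ran from -1.23 to 0.81 and *Scgb3a2* from -2.45 to 1.56; each of these extremes of opposite sign came without sgLkb1 1. With limma on log2(TPM + 1) the median of all genes shifted by 0.181 in sgLkb1 against sgInert and by -0.155 in sgCebpa/b/d against sgLkb1. Replicate numbers did not pair the samples (7 of 17 pairs correlated above 0.1, range -0.388 to 0.417). With the replicate block *Cbr2* was still called in each comparison (-1.69 in sgLkb1 against sgInert, 2.95 in sgCebpa/b/d against sgLkb1), and *Scgb1a1* in sgCebpa/b/d against sgLkb1 turned to 0.76 (adjusted p = 0.814). The causes of these changes were not tested.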
